A study of Mus musculus with 10 samples.

Results

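Transcripts of 34 glycolysis and hypoxia response genes were followed in Flk1-sorted mouse cells with and without the adaptor gene Ldb1. The genes were taken by symbol as a fixed list of glucose and lactate carriers, enzymes of glycolysis, pyruvate dehydrogenase kinases, and the factors and targets of the oxygen-sensing pathway. All 34 were found in the count table, each as 1 row of 21868, and all 34 passed the filter on low counts that left 16785 genes for testing. Both genotypes were embryonic stem cells (Ldb1+/+, called WT, and Ldb1-/-, called KO) that were differentiated in suspension as embryoid bodies without leukemia inhibitory factor and then sorted for Flk1, the VEGF receptor encoded by Kdr that marks progenitors of blood and endothelium. Neither the day of sorting of the RNA libraries, nor the structure of the knockout allele, nor the number of cell clones per genotype is given in the labels. Any other way in which the WT and KO lines differ cannot be told apart from the genotype.

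Each genotype had 4 RNA libraries of 11258493 to 13483294 reads. Counts of libraries 1 and 2, and of libraries 3 and 4, were nearly as close as repeat counts of the same RNA would be (mean chi-square per gene of 1.065 to 1.101, where 1 is sampling noise), whereas the other pairs within a genotype gave 12.764 to 28.465. Each pair was counted as 1 sample, giving samples A and B of each genotype (n = 2). Whether A and B came from separate cultures is not stated, and the p-values then cover only the spread between them, which may be technical. Ldb1 itself had 105 and 113 normalised counts per 1000000 reads (CPM) in the WT samples and 96.1 and 80.1 CPM in KO A and B, a log2 difference of -0.31 (SE 0.15, edgeR adjusted p = 0.41). The allele is not described, and the counts do not show where in the gene the reads lie. These values therefore check nothing about the labels.

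Glycolysis splits glucose into pyruvate, and lactate dehydrogenase turns pyruvate into lactate. Most steps can be run by several isoenzymes that differ in tissue and regulation. When oxygen falls, prolyl hydroxylases stop marking the alpha subunits of hypoxia-inducible factor (HIF) for breakdown, and HIF then activates many of these genes through a short promoter or enhancer element whose core is ACGTG or GCGTG. HIF1A and EPAS1 are regulated largely at the protein level, so their transcripts are not a readout of HIF activity. Rapidly dividing pluripotent cells are known for high glycolytic flux.

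The promoter sequences show what many of the genes share that their choice by symbol did not use directly, although hypoxia target genes are partly known from such elements. RefSeq promoter windows of 300 bases (250 before to 50 after a start site, build GRCm38.p6) were found for 31 of the 34 genes, 45 windows in all; those of Slc2a3, Epas1 and Bnip3l were not among them. ACGTG or GCGTG on either strand occurred in 36 of the 45 windows (80.0%), against 58.4% of the windows of all genes tested and 43.8% of all 32851 windows. ACGTG alone, on either strand, occurred in 25 windows (55.6%), against 23.9% and 19.6%. The palindrome CACGTG, which contains ACGTG on both strands and counts there as 2 matches, occurred in 15.6%, 9.33% and 7.15%. Windows of the 34 genes held 19.6 CG dinucleotides on average and those of all genes tested 19.2. A match is a stretch of letters, not a binding site. Shown are the 250 bases upstream of the start for Ldha, which had the most matches, for Pgk1, whose upstream matches are both ACGTG, and for Hif1a and Pfkp, to which the results below return. Each is written 5′ to 3′ in the direction of its gene, with matches to ACGTG or GCGTG on either strand in capitals.
Ldha (chr7:46845554-46845803, plus strand): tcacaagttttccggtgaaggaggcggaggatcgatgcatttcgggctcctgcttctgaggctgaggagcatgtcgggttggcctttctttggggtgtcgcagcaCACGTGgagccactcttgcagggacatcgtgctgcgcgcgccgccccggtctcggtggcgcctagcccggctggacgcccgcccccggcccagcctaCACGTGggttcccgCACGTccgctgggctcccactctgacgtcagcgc
Pgk1 (chrX:106186850-106187099, plus strand): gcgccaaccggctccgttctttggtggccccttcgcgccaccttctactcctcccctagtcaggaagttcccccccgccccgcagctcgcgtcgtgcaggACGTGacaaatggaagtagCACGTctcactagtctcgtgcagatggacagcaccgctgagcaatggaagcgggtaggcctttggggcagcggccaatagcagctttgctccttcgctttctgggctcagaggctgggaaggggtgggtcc
Hif1a (chr12:73907617-73907866, plus strand): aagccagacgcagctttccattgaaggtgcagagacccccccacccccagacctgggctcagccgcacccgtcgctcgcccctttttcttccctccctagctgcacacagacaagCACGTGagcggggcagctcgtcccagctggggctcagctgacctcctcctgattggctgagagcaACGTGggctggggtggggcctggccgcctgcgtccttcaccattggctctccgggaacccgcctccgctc
Pfkp (chr13:6648772-6649021, minus strand): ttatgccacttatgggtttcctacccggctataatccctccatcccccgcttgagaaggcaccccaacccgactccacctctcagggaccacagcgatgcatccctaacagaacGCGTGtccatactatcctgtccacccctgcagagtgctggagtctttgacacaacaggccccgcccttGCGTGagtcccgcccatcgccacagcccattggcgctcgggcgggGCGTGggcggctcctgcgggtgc

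Upstream of the first Ldha start, all 5 matches were of the ACGTG kind, 2 pairs of them within CACGTG. Pgk1 had 2 and Hif1a 3 upstream matches to ACGTG, and Pfkp had 3 matches, none of them ACGTG. Windows without any match of either kind were the only window of Eno2, Gpi1 and Tpi1, and alternative starts of Aldoa, Hk1, Pdk1, Pdk2, Pfkm and Pkm.

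The group as a whole was abundant in both genotypes. Together the 34 genes took 1.55% and 1.34% of all reads in WT A and B and 1.29% and 1.51% in KO A and B (1.44% ± 0.148 in WT and 1.40% ± 0.151 in KO, SD, n = 2 each), so the genotypes overlapped. Gene levels were compared between genes per kilobase of the authors' transcript length. On that scale Aldoa, Eno1 and Pkm were the most abundant, with means over the 4 samples of 1041, 997 and 897 CPM per kilobase, followed by Pgk1 (619.9), Gapdh (579) and Ldha (471). Their order is not resolved where the sample ranges overlap, as for Aldoa, Eno1 and Pkm. At the other end stood Pdk2 (5.28), Car9 (3.90) and Pfkfb4 (1.28), the last with 86 to 128 reads per sample. Several of the abundant genes, among them Gapdh, Pgk1, Ldha, Eno1 and Pgam1, have near-identical pseudogene copies, and the labels do not say how reads shared with such copies were counted.

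**Figure D1:**
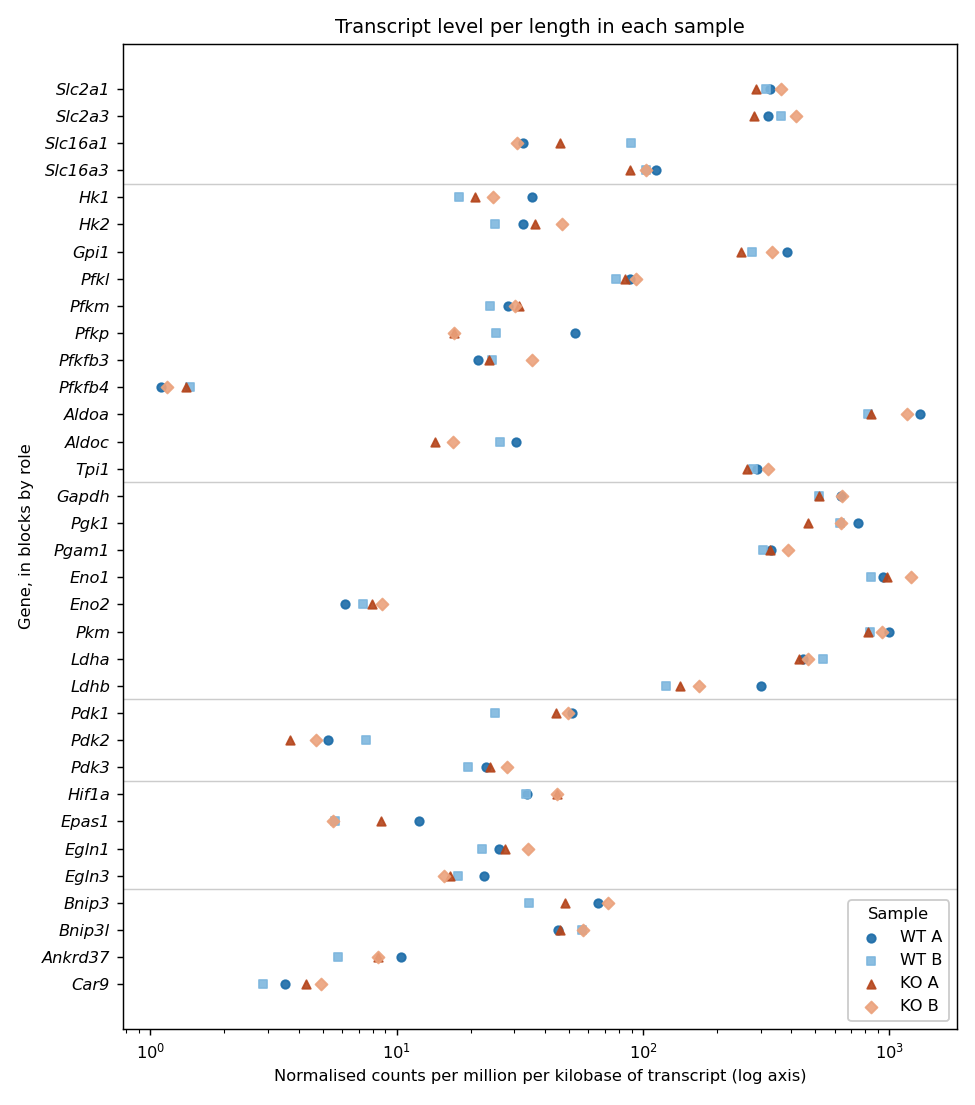
Transcript level of the 34 genes in each of the 4 samples, in CPM per kilobase of transcript on a log axis, in blocks by role (carriers, upper glycolysis, lower glycolysis, pyruvate dehydrogenase kinases, oxygen sensing, other hypoxia targets). Hif1a and Pfkp show KO samples that nearly coincide, while Slc16a1, Ldhb and Pdk1 show WT A and WT B far apart.

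The comparison of KO with WT asked whether these genes differed between the genotypes. By edgeR's quasi-likelihood test none of the 34 passed an adjusted p of 0.05 (0 lower, 0 higher), where 0.185% of all genes tested passed (0.125% lower and 0.0596% higher). Without adjustment, 2 were lower (Pfkp, Aldoc) and 2 higher (Hk2, Hif1a) at p under 0.05, 5.88% in each direction and 11.8% in all, against 7.86%, 7.61% and 15.5% of all genes tested. DESeq2 called 3 members past an adjusted p of 0.05, Pfkp and Aldoc lower and Hif1a higher, which is 8.82% of the 34, and it called 7.54% of all genes with an adjusted p (3.85% lower and 3.69% higher). In 12 members the WT and KO samples did not overlap, 4 lower and 8 higher in KO (35.3%), against 45.6% of all genes tested (22.4% lower, 23.2% higher). The fitted difference was below 0 in 14 of the 34 (41.2%), against 51.3% of all genes tested. The median log2 difference of the members was 0.015 and that of all genes tested was -0.009, and the median size regardless of sign was 0.28 against 0.23. For the 10628 genes tested with an average level over 10 CPM that median size was lower, at 0.18. The shares called or not overlapping were thus close to, or below, those of all genes. With WT A left out, 4 members passed edgeR (Slc16a1, Hk2, Aldoc and Pdk1), and with WT B left out 4 did (Hk1, Pfkp, Aldoc and Ldhb), with all genes called rising to 1537 and 1674 from 31. With KO A or KO B left out, 0 members and 0 genes passed edgeR (4 and 2 members, and 1704 and 1106 genes, at an unadjusted p under 0.05). Standard errors of the members ranged from 0.12 (Hif1a) to 0.55 (Slc16a1) on the log2 scale, so a change that missed the threshold is not shown to be absent.

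**Figure D2:**
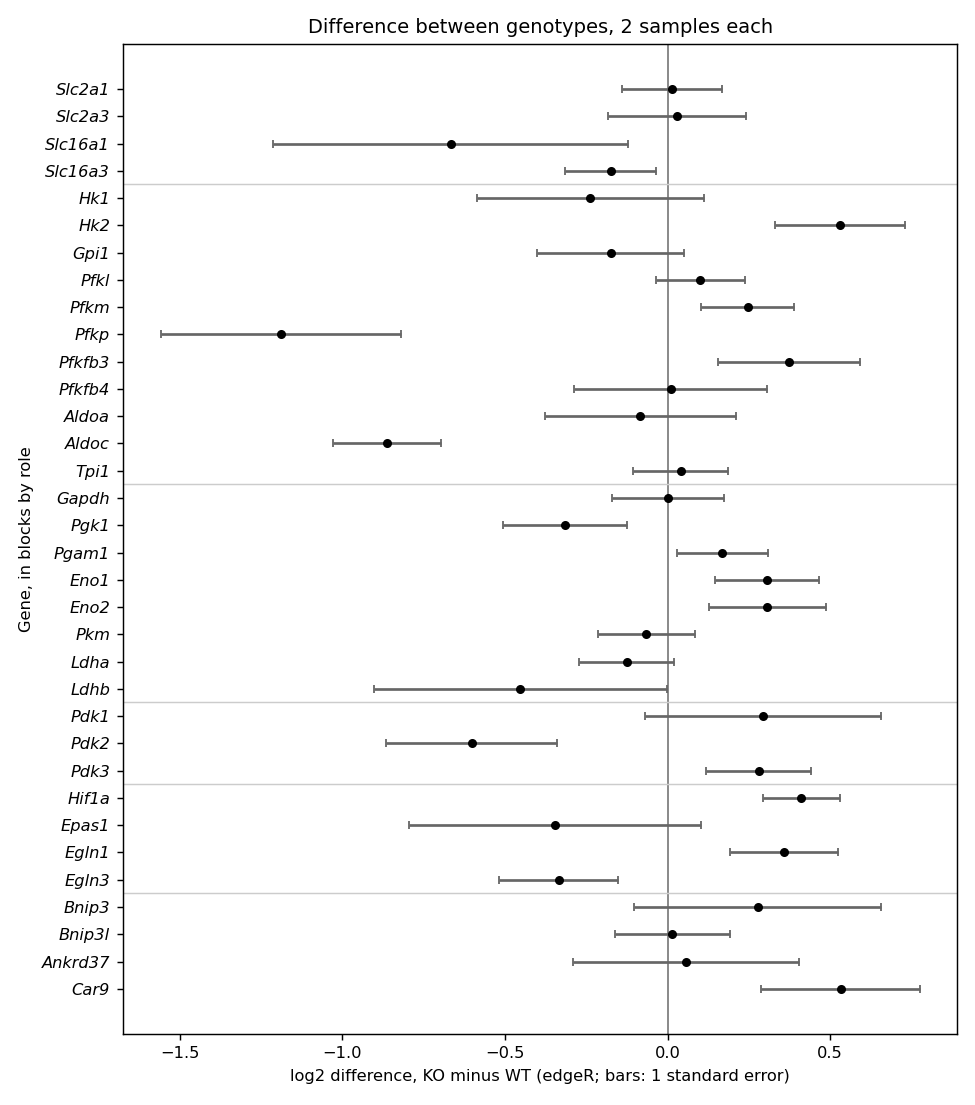
Log2 difference of KO minus WT for each of the 34 genes from the edgeR fit, with bars of 1 standard error, n = 2 samples per genotype. Most genes lie within 0.5 of 0; Pfkp (-1.19) and Aldoc (-0.86) lie furthest below and Car9 and Hk2 (both 0.53) furthest above.

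Carriers bring glucose in and lactate out. Slc2a1 and Slc2a3 encode the glucose transporters GLUT1 and GLUT3. Slc2a1 stood at 824 and 795 CPM in WT A and B and at 724 and 912 CPM in KO A and B, a log2 difference of 0.01 (SE 0.15, edgeR adjusted p = 0.981). Slc2a3 stood at 1200.3 and 1351 CPM in WT and at 1051 and 1550.4 CPM in KO (0.03, SE 0.21). For both carriers the lowest and the highest of the 4 samples were KO A and KO B. Per length, Slc2a1 made up 50.4% and 46.6% of the pair in WT and 50.5% and 46.5% in KO, so the transporters were present at about equal levels in every sample. Slc16a1 and Slc16a3 encode the lactate and pyruvate carriers MCT1 and MCT4, and MCT4 is known as the exporter of glycolytic cells. Slc16a1 was at 145 CPM in WT A and 395 CPM in WT B, with KO A at 204 CPM inside that range and KO B at 136 CPM just below it. Its log2 difference of -0.67 (SE 0.55, edgeR adjusted p = 0.673) had the widest error of the group. Without WT A it was -1.22 and passed (edgeR adjusted p = 0.0108), and without WT B it was 0.24. Slc16a3, on chromosome 11, stood at 258, 233, 201 and 234 CPM in WT A, WT B, KO A and KO B (-0.175, SE 0.14), and its difference was 0.30 once each chromosome's median difference was removed.

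Hexokinases trap glucose as its phosphate. Hk2, the inducible form, stood at 179.6 and 138 CPM in WT A and B and at 199.8 and 258 CPM in KO A and B. Both KO samples were above both WT samples, by a log2 difference of 0.53 (SE 0.20, edgeR adjusted p = 0.288). Without WT A the difference was 0.725 and passed (edgeR adjusted p = 0.0433). It did not pass without WT B (0.357, edgeR adjusted p = 0.375), without KO A (0.709, 0.481) or without KO B (0.332, 0.941). Hk1, the widely expressed form, was at 132 CPM in WT A, 67.0 CPM in WT B, 77.5 CPM in KO A and 91.4 CPM in KO B, with the KO samples inside the WT range (-0.24, SE 0.35). Without WT B its difference was -0.64 and passed (edgeR adjusted p = 0.0384), and without WT A it was 0.33. Of the transcripts of Hk1 and Hk2 per length, Hk2 made up 48.0% and 58.3% in WT and 63.6% and 65.7% in KO. Gpi1, the next enzyme, stood at 785 and 564 CPM in WT and at 511 and 685 CPM in KO (-0.17, SE 0.23).

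Phosphofructokinase commits sugar to glycolysis and is built from liver (Pfkl), muscle (Pfkm) and platelet (Pfkp) type subunits. Pfkp (ENSMUSG00000021196) showed the largest difference of the 34 genes. It stood at 141 CPM in WT A and 67.9 CPM in WT B, and at 46.0 and 45.8 CPM in KO A and B. Every KO sample was below every WT sample, a 2.28-fold lower level (log2 difference -1.19, SE 0.37, edgeR adjusted p = 0.240; DESeq2 adjusted p = 0.0135). The WT samples themselves differed by 2.08-fold, and the size of the difference rested on them, at -0.57 without WT A and -1.62 without WT B (edgeR adjusted p = 0.0541 and 6.03e-05). Without KO A or KO B it was -1.19 and did not pass (edgeR adjusted p = 0.643 and 0.874). Pfkl stood at 239.9, 209.6, 229 and 253 CPM in WT A, WT B, KO A and KO B (0.10, SE 0.14). Pfkm stood at 78.4 and 66.1 CPM in WT and, a little higher without overlap, at 87.2 and 84.2 CPM in KO (0.25, SE 0.14, edgeR adjusted p = 0.496). As a share of the phosphofructokinase transcripts per length, Pfkp made up 25.6% ± 7.86 in WT and 12.5% ± 0.522 in KO (SD, n = 2 each), and Pfkl 52.2% and 61.1% in WT and 63.5% and 66.3% in KO. Because an RNA sample of mixed cells was measured, fewer cells with Pfkp and less Pfkp RNA per cell cannot be told apart, here and for the other genes.

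Pfkfb3 and Pfkfb4 encode enzymes that set fructose 2,6-bisphosphate, the main activator of phosphofructokinase, and both are known hypoxia targets. Pfkfb3 stood at 109, 123 and 121 CPM in WT A, WT B and KO A and at 180.3 CPM in KO B alone (0.37, SE 0.22). Pfkfb4 stayed between 3.67 and 4.83 CPM in all 4 samples (0.01, SE 0.30).

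Aldolase splits the sugar bisphosphate. Aldoa, the main form here, stood at 2054 and 1265 CPM in WT A and B and at 1305 and 1828 CPM in KO A and B, so that the samples of a genotype differed more than the genotypes (-0.08, SE 0.29). Aldoc (ENSMUSG00000017390), the form known from brain, stood at 51.8 and 44.8 CPM in WT and at 24.3 and 28.8 CPM in KO. KO samples lay well below WT samples, 1.82-fold on average (log2 difference -0.86, SE 0.17, edgeR adjusted p = 0.110; DESeq2 adjusted p = 0.00158). It passed edgeR without WT A (edgeR adjusted p = 0.021) and without WT B (0.0065), and it did not pass without KO A (0.458) or without KO B (0.716). Aldoc lies on chromosome 11, where the genes as a whole had a median log2 difference of -0.47 in KO, and with each chromosome's median removed its difference was -0.39 (edgeR adjusted p = 0.416). Aldoc made up 2.24% and 3.12% of the transcripts of Aldoa and Aldoc per length in WT and 1.67% and 1.41% in KO. Tpi1, which interconverts the products of aldolase, stood at 390.1 and 373 CPM in WT and at 353 and 432 CPM in KO (0.04, SE 0.15).

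**Figure D3:**
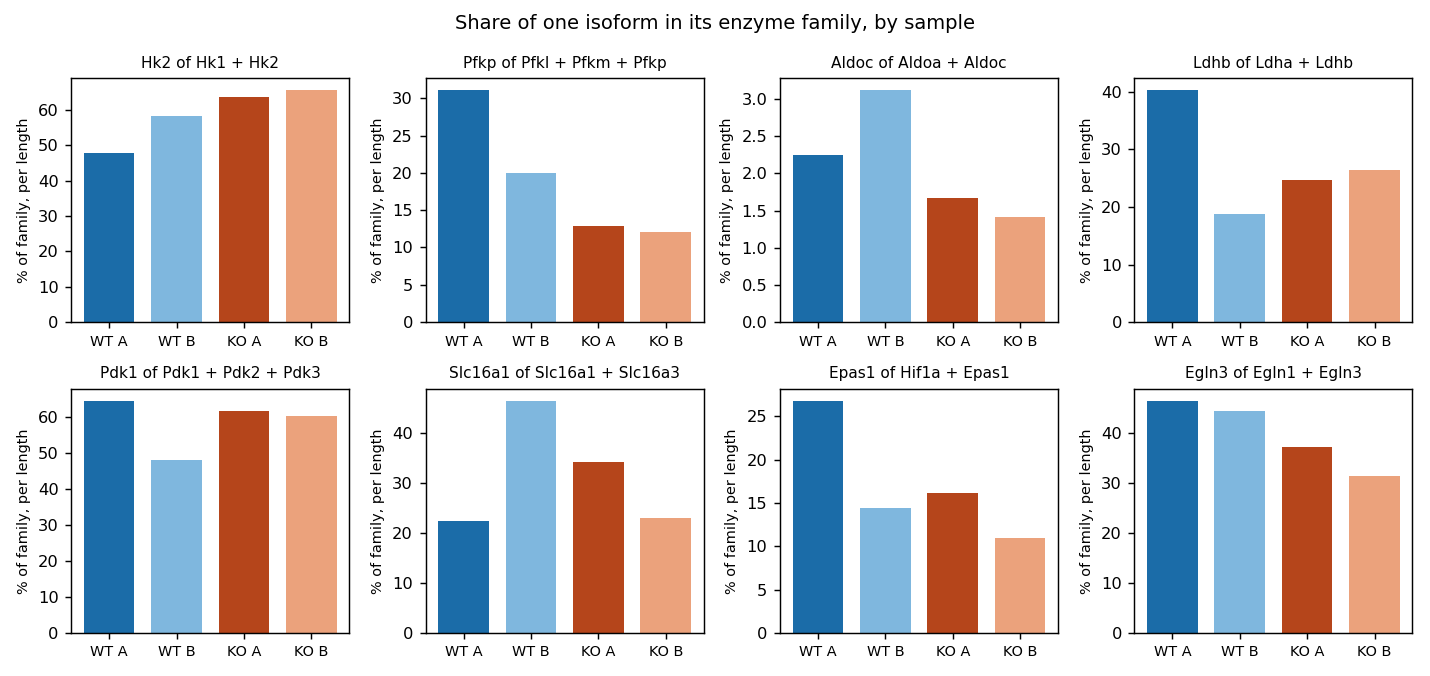
Share of a single isoform among the transcripts of its enzyme or regulator family, per length, in each sample (bars start at 0, 1 bar per sample). Pfkp, Aldoc and Egln3 were a smaller share, and Hk2 a larger share, in both KO samples than in both WT samples, whereas Ldhb, Pdk1 and Slc16a1 separated WT A from WT B.

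The steps of lower glycolysis regain energy and end in pyruvate and lactate. None of the 8 genes reached p under 0.05 by edgeR. Gapdh, often used as a reference gene, stood at 908 and 736 CPM in WT A and B and at 738 and 909 CPM in KO A and B, a log2 difference of 0.00 (SE 0.17). It was thus alike between genotypes on average and yet uneven between samples of 1 genotype. Pgk1 stood at 1269 and 1081 CPM in WT and at 799 and 1089 CPM in KO (-0.32, SE 0.19, edgeR adjusted p = 0.516), with KO A lowest. Pgam1 stood at 552, 512, 549 and 647 CPM in WT A, WT B, KO A and KO B (0.17, SE 0.14). Eno1 was higher in KO without overlap, at 1793 and 1597 CPM in WT and at 1860.2 and 2331 CPM in KO (0.31, SE 0.16, edgeR adjusted p = 0.452). Eno2, the neuronal enolase, was also higher in both KO samples, at a far lower level, with 14.7 and 17.4 CPM in WT and at 18.9 and 20.9 CPM in KO (0.31, SE 0.18). Of the transcripts of Eno1 and Eno2 per length, Eno1 made up 99.1% to 99.4% in every sample. Pkm, whose splice forms the count table does not separate, stood at 2212 and 1859.5 CPM in WT and at 1827 and 2066 CPM in KO (-0.06, SE 0.15).

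Lactate dehydrogenase is a tetramer of A and B subunits, and the A subunit is known to favour lactate production. Ldha stood at 786 and 948 CPM in WT A and B and at 760.2 and 829 CPM in KO A and B (-0.13, SE 0.15). Ldhb stood at 380.4 CPM in WT A, 157 CPM in WT B, and 179 and 214 CPM in KO A and B (-0.45, SE 0.45, edgeR adjusted p = 0.741). WT A was therefore the sample that stood apart, and without WT B the difference was -0.95 (edgeR adjusted p = 0.00938) while without WT A it was 0.32. Ldhb made up 40.3% of the pair per length in WT A, 18.8% in WT B, 24.7% in KO A and 26.5% in KO B.

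Pyruvate dehydrogenase kinases sit in the mitochondria and inhibit pyruvate dehydrogenase, which turns pyruvate into acetyl-CoA, and PDK1 is a known HIF target. Pdk1 stood at 204 CPM in WT A, 98.7 CPM in WT B, and 175 and 196 CPM in KO (0.29, SE 0.36). Here WT B was the low sample, and without WT A the difference was 0.90 and passed (edgeR adjusted p = 0.00771), while without WT B it was -0.13. Pdk3 was slightly higher in KO without overlap, with 46.2 and 39.1 CPM in WT and at 47.6 and 55.8 CPM in KO (0.28, SE 0.16, edgeR adjusted p = 0.498). Pdk2, on chromosome 11, stood at 11.6 and 16.5 CPM in WT and at 8.16 and 10.3 CPM in KO (-0.60, SE 0.26, edgeR adjusted p = 0.362), and at -0.13 once the chromosome medians were removed.

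Hif1a and Epas1 encode the oxygen-regulated subunits HIF-1 alpha and HIF-2 alpha. Hif1a (ENSMUSG00000021109) stood at 148.2 and 147.6 CPM in WT A and B and at 196.6 and 196.8 CPM in KO A and B, 1.33-fold higher in KO. The samples of each genotype nearly coincided (148 ± 0.44 CPM in WT and at 197 ± 0.108 CPM in KO, SD, n = 2 each). The 4 WT libraries lay between 143 and 154 CPM and the 4 KO libraries between 194 and 198 CPM. The 2 libraries of WT A alone lay at 154 and 143 CPM, further apart than the WT samples. An SD from 2 samples this close is thus not a measure of precision. The log2 difference of 0.41 (SE 0.12) did not pass (edgeR adjusted p = 0.189) but passed by the other tool (DESeq2 adjusted p = 0.0491). It ranged from 0.39 to 0.43 over the fits that left out a sample or a library. With samples this close, that range is not a measure of precision either. Epas1 stood at 38.4 CPM in WT A, 17.5 CPM in WT B, 26.8 CPM in KO A and 17.1 CPM in KO B (-0.35, SE 0.45), so the spread within each genotype covered the difference. Hif1a made up 73.2% and 85.6% of the pair per length in WT and 83.8% and 89.0% in KO.

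Egln1 and Egln3 encode the prolyl hydroxylases PHD2 and PHD3, which mark HIF alpha subunits and are themselves HIF targets. They lay in opposite directions. Egln1 stood at 65.1 and 55.6 CPM in WT A and B and at 69.2 and 85.4 CPM in KO A and B (0.36, SE 0.17, edgeR adjusted p = 0.393). Egln1 lies on chromosome 8, where genes as a whole had a median log2 difference of 0.25 in KO, and its difference was 0.11 with the chromosome medians removed. Egln3 stood at 29.6 and 23.3 CPM in WT and at 21.5 and 20.4 CPM in KO (-0.34, SE 0.18, edgeR adjusted p = 0.471). Egln3 thereby made up 46.5% and 44.5% of the pair per length in WT and 37.3% and 31.4% in KO.

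Among the other hypoxia targets, Bnip3 and Bnip3l encode mitophagy receptors. Bnip3 stood at 115 CPM in WT A, 60.3 CPM in WT B, 85.1 CPM in KO A and 127 CPM in KO B (0.28, SE 0.38), with the lowest sample in WT and the highest in KO. Bnip3l stood at 148 and 184 CPM in WT A and B and at 149.7 and 186 CPM in KO A and B (0.01, SE 0.18). Its samples of a genotype differed more than the genotypes, and the letters do not pair samples across genotypes. Car9, a carbonic anhydrase widely used as a marker of hypoxic tissue, was near the low end of the group. It stood at 6.87 and 5.62 CPM in WT and at 8.42 and 9.64 CPM in KO (0.53, SE 0.24, edgeR adjusted p = 0.385). Ankrd37 stood at 7.21 CPM in WT A, 4.00 CPM in WT B, and 5.83 and 5.81 CPM in KO (0.06, SE 0.35). All 4 of these targets had a fitted difference above 0, although Bnip3l (-0.036) and Ankrd37 (-0.189) were below 0 with chromosome medians removed. Of the 4, only Car9 had KO samples that did not overlap the WT samples.

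Samples of the same genotype differed in these genes about as much as the genotypes did. In WT, 26 of the 34 stood lower in sample B than in sample A (76.5%), against 50.3% of all genes tested, and the median log2 of B over A was -0.23. In KO the balance was the other way, with 27 of 34 higher in sample B (79.4%), against 53.8% of all genes, and a median of 0.24. The medians over all genes tested were 0.00 in WT and 0.03 in KO. There is 1 sample on each side of these comparisons, so no test was made, and genes of a library share its scaling. In WT, 8 genes were at least 1.5-fold lower in B (Hk1, Pfkp, Aldoa, Ldhb, Pdk1, Epas1, Bnip3 and Ankrd37), 23.5% against 12.4% of all genes. Slc16a1, 2.73-fold above, was the only gene at least 1.5-fold higher in B, 2.94% against 9.38% of all genes. In KO only Epas1 was at least 1.5-fold lower in B, 2.94% against 7.73%, and none was as much higher, against 5.92%. Among the 8 that were lower in WT B, the difference was largest for Ldhb (2.43-fold), Epas1 (2.19-fold), Pfkp (2.08-fold) and Pdk1 (2.06-fold).

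**Figure D4:**
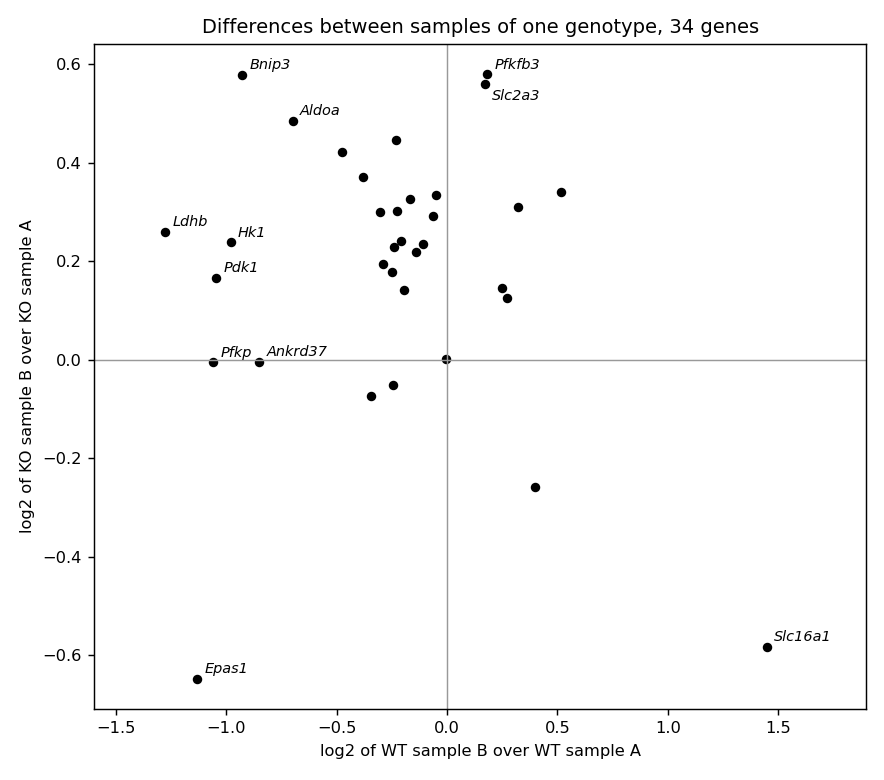
Log2 ratio of sample B over sample A in WT (horizontal axis) and in KO (vertical axis) for the 34 genes, 1 point per gene. Most points lie left of 0 in WT and above 0 in KO, and Slc16a1 lies alone at 1.45 in WT and -0.58 in KO.

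Summed markers of cell state also differed between the samples. The summed level of 8 pluripotency markers was 1916 CPM in WT A, 510.3 CPM in WT B, 859.6 CPM in KO A and 1105 CPM in KO B, with none at 0. The summed level of 8 primitive streak markers was 38.8, 304, 76.8 and 30.9 CPM in the same order. Ldhb, Hk1, Aldoa and Pdk1 shared the sample order of the pluripotency sum (WT A, KO B, KO A, WT B). Slc16a1 shared that of the streak sum (WT B, KO A, WT A, KO B). Single markers did not all follow the order of their own sum. Few orders are possible with 4 samples, so such matches can arise by chance among many genes. With 4 samples this is a description, and the part of these cell states in the differences was not tested. The sum over 7 markers of Flk1-sorted progenitors was 1048 and 977 CPM in WT and at 600.7 and 235 CPM in KO. Kdr, whose product was the sort marker, stood at 439.5 and 605 CPM in WT and at 236 and 78.6 CPM in KO (log2 difference -1.73, SE 0.59, edgeR adjusted p = 0.289). All 7 were detected in every sample, and their sum leaned on the most abundant of them, Kdr included. Taken singly, 5 of the 7 were lower in KO without overlap, against 22.4% of all genes tested. The rest overlapped, and 1 of the 7 had a log2 difference slightly above 0 (0.05). Of the remaining marker lists, 2 of 6 tested erythroid markers were lower (Hba-x and Hba-a1), 1 of 5 neuroectoderm (Nes) and 1 of 7 cardiac and smooth muscle markers (Col1a2) were higher, and none of 6 tested visceral endoderm markers passed edgeR over all genes. DESeq2 called 5 erythroid markers lower, and 1 neuroectoderm and 3 cardiac and smooth muscle markers higher (all genes: 3.85% lower, 3.69% higher). All 6 tested erythroid markers were lower in KO without overlap (all genes: 22.4%), with a median log2 difference of -5.58.

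Further genes of these pathways were counted from lists written beside that of the 34. Of 37 other glycolysis and pyruvate genes, 33 were tested and none passed edgeR (3 lower and 2 higher at p under 0.05, 1 lower and 1 higher by DESeq2, median log2 difference -0.04). Among all genes, 7.86% were lower and 7.61% higher at an edgeR p under 0.05, and 3.85% and 3.69% by DESeq2. Without overlap, 10 of the 33 were lower and 3 higher in KO, against 22.4% and 23.2% of all genes tested. By mean CPM, not corrected for length, the most abundant were Pdha1, a subunit of pyruvate dehydrogenase (0.12, SE 0.14), and its partner Dld (-0.19, SE 0.13). The muscle enolase gene Eno3 on chromosome 11, named after its value was seen, stood at 55.3 and 70.2 CPM in WT and at 121 and 162 CPM in KO. It was higher in every KO sample than in every WT sample (1.17, SE 0.20, edgeR adjusted p = 0.108; DESeq2 adjusted p = 5.56e-05), as were Eno1 and Eno2. Of 30 other hypoxia pathway genes, 29 were tested and none passed edgeR (2 lower and 5 higher at p under 0.05, 0 lower and 1 higher by DESeq2, median 0.16). The shares of all genes are those given above. Without overlap, 4 of the 29 were lower and 11 higher in KO, against 22.4% and 23.2% of all genes tested. The fitted difference was below 0 in 10 and above 0 in 19. By mean CPM, not corrected for length, the most abundant were Ddit4, a stress-induced inhibitor of mTORC1 (0.58, SE 0.15, edgeR adjusted p = 0.165), which was the call by DESeq2 (DESeq2 adjusted p = 0.0223), and Ero1l, an oxidase of the endoplasmic reticulum (0.03, SE 0.24). None of 7 pentose phosphate genes passed (median -0.07), with Tkt at -0.12 (SE 0.13) and Taldo1 at -0.07 (SE 0.19). None of 17 tricarboxylic acid cycle genes passed (median -0.04), with Cs, the citrate synthase gene, at -0.01 (SE 0.14).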

How the data were processed

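RNA sequencing libraries of Flk1-sorted Ldb1+/+ and Ldb1-/- cells, 4 per genotype, were analysed from a deposited table that holds whole-number read counts for each Ensembl gene. DESeq and the mouse build mm9 are named in the submitters' processing notes; the aligner, the counter and the use of strand are not stated. Symbols were matched to the Ensembl gene identifiers from a separate reference of gene names. The table gives each gene a transcript length chosen by the authors, and lengths were used only for levels per kilobase. Libraries 1 and 2, and 3 and 4, were summed to samples A and B (22674679 to 26775787 reads). Low counts were removed by filterByExpr, TMM gave the scaling, and the test was that of edgeR 4.0.16 (quasi-likelihood, robust, R 4.3.3), with p-values adjusted by Benjamini-Hochberg over the 16785 genes tested and a threshold of 0.05. The standard error is the log2 difference divided by the square root of F. With 2 samples against 2, an exact permutation test cannot give a p below 0.333. DESeq2 1.42.0 was the other tool; its adjusted p was NA for 1302 genes. The test was also run on simulated counts whose spread depended only on a gene's mean level. That run does not show how the test behaves for genes whose samples differ more than that. Chromosome medians were taken over genes with a mean log2 CPM above 3.

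The members and gene lists were chosen with earlier results of these data known. Genes named were Ldb1, Kdr, all 34 members and, of each other list, up to 4 genes past the test and the 2 most abundant that did not pass; marker lists of other cell types are given by counts and summed level. Some genes of these lists are not reported here. Promoters are from RefSeq (GRCm38.p6), matched by symbol, and their coordinates were not joined to the count table. The ChIP-seq peaks of the series were not used here.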

Additional observations from a re-analysis of the deposited data

How the results depend on the processing

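Counts of genes past edgeR's adjusted p of 0.05 depended on how the samples entered the fit. Against 31 genes and 0 members, 8 libraries fitted separately gave 3860 genes and 8 members (Hk2, Pfkp, Aldoc, Eno1, Hif1a, Egln1, Egln3, Car9), a fit that counts near-identical libraries as separate samples. DESeq2 gave 1168 genes and 3 members, and no filter on low counts gave 151 genes and 0 members. Sample deviations did not go together by letter (r = -0.0846 across 16785 genes, which are not independent), so the numbers were not taken to pair the samples; the replicate block gave 5 genes and 0 members. Leaving out a sample or a library gave 0 to 1674 genes and 0 to 4 members, the lowest without KO A or without KO B and the highest without WT B; a lone sample was then assumed to vary like the other group. RLE scaling (30 genes) and removal of chromosome medians (22 genes) also gave 0 members. The cause was not tested.

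Of the 34 members, 16 kept the direction of their log2 difference under every setting and 18 did not. With chromosome medians removed the difference turned to -0.018 for Slc2a1, -0.007 for Slc2a3, 0.297 for Slc16a3, -0.011 for Pfkfb4, -0.033 for Gapdh, -0.036 for Bnip3l and -0.189 for Ankrd37. Gapdh was also at -0.004 with 8 libraries, -0.001 with RLE scaling and -0.001 with DESeq2. Over the fits that left out a sample or library, the differences ranged from -0.163 to 0.177 for Slc2a1, -0.28 to 0.287 for Slc2a3, -1.222 to 0.237 for Slc16a1, -0.641 to 0.327 for Hk1, -0.401 to 0.076 for Gpi1, -0.181 to 0.226 for Pfkfb4, -0.386 to 0.3 for Aldoa, -0.114 to 0.185 for Tpi1 and -0.156 to 0.153 for Gapdh. They ranged from -0.18 to 0.058 for Pkm, -0.263 to 0.02 for Ldha, -0.95 to 0.316 for Ldhb, -0.131 to 0.902 for Pdk1, -0.802 to 0.32 for Epas1, -0.109 to 0.806 for Bnip3, -0.15 to 0.189 for Bnip3l and -0.304 to 0.534 for Ankrd37. The median over members was -0.015 with chromosome medians removed and between -0.132 and 0.188 over the leave-one-out fits. Without Pkm, Eno1 and Aldoa, the members' share of reads was 0.9% in WT and 0.847% in KO. A planned comparison of protein sequences was not run. With 2 samples per genotype, the spread between samples limited the precision of members such as Slc16a1, Ldhb and Pdk1. How far read depth limited the others was not tested.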

Other observations

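Enzymes of neighbouring pathways took a steadier share of the reads than the glycolysis enzymes did. The 19 glycolysis enzymes among the 34 genes took 1.22% and 0.994% of reads in WT A and B and 0.989% and 1.15% in KO A and B. The 17 tricarboxylic acid cycle genes took 0.256% and 0.247% in WT and 0.227% and 0.238% in KO, so that both KO samples were below both WT samples, and the 7 pentose phosphate genes took 0.0851% and 0.0859% in WT and 0.0824% and 0.0787% in KO, again without overlap. These are shares of all reads and were not tested. Summed as normalised CPM, the cycle genes ran from 2449 to 2532 (WT) and from 2221 to 2487 (KO), so on that scale the genotypes overlapped. The pentose phosphate sums stayed apart on both scales, at 842 to 850 (WT) against 807 to 822 (KO). Tkt was the most abundant of these 7 genes, running from 461 to 516 CPM (WT) and from 445 to 454 CPM (KO). Shares and sums of this list therefore leaned on Tkt. Gene by gene, 2 were lower and 2 higher in KO without overlap, so no decrease across the list is shown. Within the cycle, Ogdh, a subunit of the 2-oxoglutarate dehydrogenase complex that was named after its value was seen, stood at 249 and 237 CPM in WT A and B against 173 and 180 CPM in KO A and B (log2 difference -0.46, SE 0.12, edgeR adjusted p = 0.168; DESeq2 adjusted p = 0.0198). It lies on chromosome 11, whose genes had a median log2 difference of -0.47.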
